A study of Mus musculus with 10 samples.

Results

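The genes described here encode proteases that cut the extracellular matrix or cell surface proteins, and the inhibitors that hold them in check. They are 10 genes chosen by name from the 28585 genes of the deposited count table: the matrix metalloproteinases Mmp14, Mmp19, Mmp12 and Mmp25, the disintegrin proteases Adam8 and Adamts1, the plasminogen activator Plau, and the tissue inhibitors of metalloproteinases Timp1, Timp2 and Timp3. All 10 were in the table and passed the filter on low counts. RNA was sequenced from fluorescent cells sorted out of the ischemic hemisphere of mouse brains, and the series design asks which genes distinguish infiltrating CD11c cells from microglia.

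The transgenic CD11c group held 4 libraries (replicates 23, 24, 26 and 27) of CD11c-eYFP+ cells from Tg(Itgax-Venus)1Mnz mice aged 13 to 14 weeks. In these mice a yellow fluorescent protein is driven by the promoter of Itgax, the gene of CD11c, so that any cell with an active promoter carries the reporter, whether resident or infiltrating. The parabiotic CD11c group held 3 libraries (replicates 3, 11 and 15) of CD11c-eYFP+ cells from C57BL/6 mice that shared their circulation with a Tg(Itgax-Venus)1Mnz partner, at 15 to 16 weeks of age. By that design only the partner carries the reporter, and eYFP+ cells in the wild-type host derive from the partner's blood. The labels of parabiotic replicate 15 give the genotype Tg(Itgax-Venus)1Mnz and mention neither parabiosis nor a cell type, and this library was placed by its title and age. The microglia group held 3 libraries (replicates 39, 40 and 41) from CX3CR1CreERT2:Rosa26-tdT mice aged 13 to 14 weeks. In these mice an inducible Cre recombinase (CreERT2) in the Cx3cr1 gene turns on a red reporter once it is induced. All groups shared the ischemic injury and the sort without staining, and none came from an uninjured brain. The labels give the sex as female except for parabiotic replicate 15, where none is given, and they do not say whether animals were pooled.

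Library totals ranged from 31534625 to 41730688 counts. The library numbers of transgenic replicates 26 and 27 do not belong to the series of numbers that the other 8 libraries share. Results that rest on these 2 libraries are given with and without them. Without them the transgenic group holds replicates 23 and 24, the most alike pair of replicates. The chi-square between their counts was 11.8 per degree of freedom. It was 165.3 to 210.2 in the other transgenic pairs and 20.5 to 69.8 in pairs of the other groups. Tests of that fit therefore rest on a narrow spread within the transgenic group. The labelled cell types were checked against 7 microglial markers, which summed to 4472 to 12800 CPM (the gene's count scaled to a common library size) in transgenic libraries, 1750 to 2730 CPM in parabiotic libraries and 15580 to 16210 CPM in microglia. The 9 dendritic cell markers, Itgax among them, summed to 3184 to 12680 CPM in transgenic libraries and 19790 to 24920 CPM in parabiotic libraries, against 234.7 to 330.3 CPM in microglia. Most of that sum was Cd74 and H2-Aa, of the MHC class II pathway, in every library. Zbtb46, another of these markers, stood at 5.36 to 26.6 CPM in transgenic, 23.7 to 36.6 CPM in parabiotic and 5.64 to 8.81 CPM in microglia libraries. The 5 monocyte markers summed to 159.3 to 517.7 CPM in transgenic, 719.9 to 876.1 CPM in parabiotic and 9.94 to 12.8 CPM in microglia libraries. The transgenic libraries therefore lay between the other groups on each of these sums. Which of these cell types the CD11c cells were was not tested. In sorted populations of this kind, fewer cells of one type and less RNA per cell cannot be told apart.

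Matrix metalloproteinases are made as inactive zymogens and degrade collagens, elastin, basement membrane and surface proteins once they are activated. The tissue inhibitors bind their active sites in a complex of one inhibitor with one enzyme. After a stroke, proteases of leukocytes and resident cells act on the basement membrane of vessels and on the perineuronal matrix, and urokinase starts a second cascade by turning plasminogen into plasmin.

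The stretch of 250 bases before the transcription start is shown for 4 genes on which the results turn, as given by RefSeq on GRCm38.p6. Timp1 and Adamts1 had the widest differences between groups among the 10 genes, Mmp14 was the metalloproteinase that differed in every comparison, and Mmp12 ranged from 20.0 to 172.4 CPM among transgenic libraries. The windows lie at chrX:20869916-20870165 on the plus strand for Timp1, chr14:54431348-54431597 on the plus strand for Mmp14 and chr16:85803114-85803363 on the minus strand for Adamts1. The window of Mmp12 lies at chr9:7347124-7347373 on the plus strand, before the second of its RefSeq starts. Capitals mark matches to 4 short motifs that were searched on both strands, and no match shown overlaps another.
Timp1: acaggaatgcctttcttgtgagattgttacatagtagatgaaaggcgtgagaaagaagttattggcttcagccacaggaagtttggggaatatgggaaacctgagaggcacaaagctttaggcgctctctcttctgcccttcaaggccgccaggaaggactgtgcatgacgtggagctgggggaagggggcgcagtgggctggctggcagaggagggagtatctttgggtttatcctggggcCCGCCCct
Mmp14: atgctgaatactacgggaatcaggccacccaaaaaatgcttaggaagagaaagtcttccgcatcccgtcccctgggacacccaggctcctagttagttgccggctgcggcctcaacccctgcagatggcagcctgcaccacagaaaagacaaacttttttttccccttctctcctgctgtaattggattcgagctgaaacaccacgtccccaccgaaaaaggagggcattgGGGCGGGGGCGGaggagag
Adamts1: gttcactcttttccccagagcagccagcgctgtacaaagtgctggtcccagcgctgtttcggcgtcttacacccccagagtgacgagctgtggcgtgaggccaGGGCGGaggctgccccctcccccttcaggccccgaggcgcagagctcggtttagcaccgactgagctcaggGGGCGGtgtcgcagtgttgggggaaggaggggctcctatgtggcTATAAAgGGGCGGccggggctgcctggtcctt
Mmp12: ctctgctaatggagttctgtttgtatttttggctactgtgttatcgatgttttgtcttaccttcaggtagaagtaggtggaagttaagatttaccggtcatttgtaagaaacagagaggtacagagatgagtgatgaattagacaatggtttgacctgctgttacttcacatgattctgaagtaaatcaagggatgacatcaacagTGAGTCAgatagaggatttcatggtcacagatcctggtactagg
The motifs were TGANTCA, bound by AP-1 factors, TATAAA, the TATA box, GAGGAAG, bound by the myeloid factor PU.1, and GGGCGG, the GC box. Of 32851 promoter windows of the same length, 6.75% held the AP-1 motif, 12.4% the TATA box, 10.6% the PU.1 motif and 32.7% the GC box. Timp1 had a GC box that began 8 bases before the start, read on the opposite strand, and Mmp14 had 2 adjoining GC boxes at 19 and 13 bases. Adamts1 had a TATA box at 32 bases and GC boxes at 147, 76 and 25 bases. The Mmp12 window shown held the sequence TGAGTCA at 44 bases, and the window before its first start, not shown, held a PU.1 match at 87 bases and no AP-1 match. 8 of the 10 genes had an entry in the promoter table, and a match describes the letters only.

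In the parabiotic CD11c cells against microglia, 4 of the 10 genes were higher (Mmp14, Mmp19, Adam8 and Timp1), 3 were lower (Adamts1, Plau and Timp2) and 3 did not pass the test. A gene was called where edgeR's quasi-likelihood test gave a Benjamini-Hochberg adjusted p below 0.05 over all 15151 genes tested. Over all genes tested 35.3% were called in this comparison, 17.4% as higher and 17.9% as lower. In 9 of the 10 genes the libraries of the 2 groups did not overlap, as in 60.3% of all genes tested. The median log2 fold change was 1.72 over the 10 genes and -0.02 over all genes tested.

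In transgenic CD11c cells against microglia, the same 4 genes were higher (Mmp14, Mmp19, Adam8 and Timp1) and edgeR called none lower, while 6 did not pass. The background here was 13.7% of all genes, with 8.88% higher and 4.79% lower. Without adjustment 1 gene was lower, Plau, and neither DESeq2 nor limma-voom called any lower. The libraries did not overlap in 4 of the 10 genes and in 30.3% of all genes tested. The median log2 fold change was 0.87, against 0.02 over all genes. This comparison shares its microglia libraries with the one before, so the calls of both are not independent.

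Between transgenic and parabiotic CD11c cells, Adamts1 and Timp2 were higher in the transgenic cells, Mmp14 was lower and 7 genes did not pass. Over all genes tested 10.1% were called, 7.63% as higher and 2.42% as lower. The libraries of both groups did not overlap in 4 of the 10 genes, against 22.7% of all genes tested. The median log2 fold change of the 10 genes was -0.06, against 0.04 over all genes. Leaving out one library at a time gave 4 to 5 higher and 3 lower genes in the first comparison, 2 to 5 higher and 0 lower in the second, and 1 to 3 higher and 0 to 3 lower in the third. Without parabiotic replicate 15, whose labels are incomplete, 4 were higher and 3 lower in the first comparison, 2 higher in the second, and 2 higher and 0 lower in the third. Without both transgenic replicates 26 and 27, 5 were higher and 3 lower in parabiotic cells against microglia. In transgenic cells 4 were then higher and 0 lower against microglia, and 3 higher and 4 lower against parabiotic cells. The number of genes called over all genes tested also moved when libraries were left out. Without both replicates it was larger in parabiotic cells against microglia and in transgenic against parabiotic cells. The shares over all genes given above therefore do not apply to the counts with libraries left out, and the totals are given in the section on processing at the end. Whether the 10 genes moved more than the rest was not tested.

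**Figure D1:**
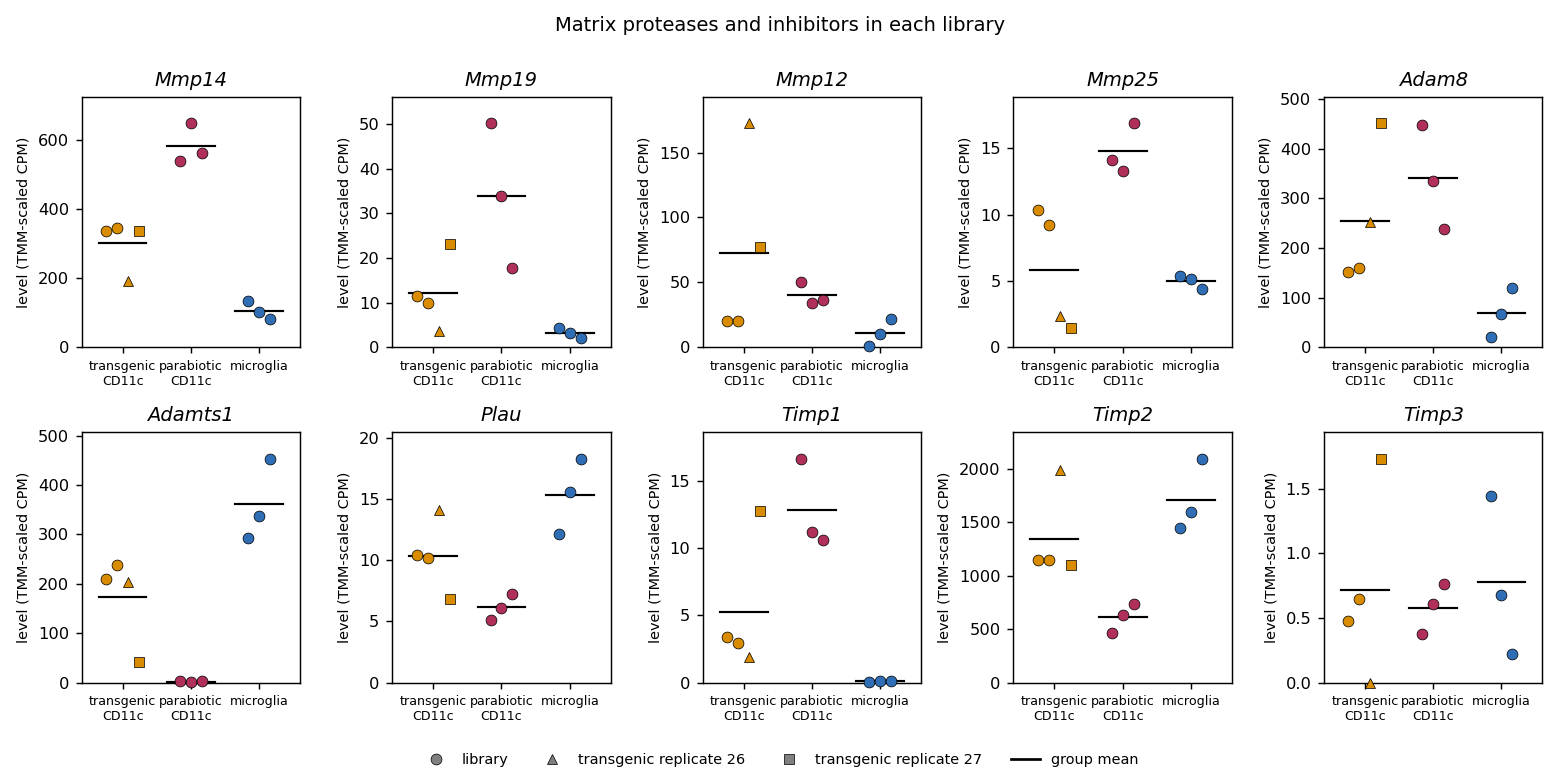
Levels of the 10 genes in TMM-scaled CPM, 1 panel per gene with its own linear axis from 0, for transgenic CD11c, parabiotic CD11c and microglia libraries from left to right. Each point is a library, black lines are group means, and triangles and squares mark transgenic replicates 26 and 27; Adamts1 is below 4 CPM in all parabiotic libraries, while Timp1 stays below 0.2 CPM in all microglia libraries.

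Gene coordinates are on GRCm38. Mmp14 (ENSMUSG00000000957, chr14:54431612-54445364, plus strand) encodes a metalloproteinase anchored in the plasma membrane, which cuts fibrillar collagen at the cell surface and activates the zymogen of MMP2. It stood at 337.2, 345.2, 192.3 and 337.6 CPM in transgenic replicates 23, 24, 26 and 27, at 538.6, 648.2 and 562.0 CPM in parabiotic replicates 3, 11 and 15, and at 134.7, 101.6 and 81.96 CPM in microglia replicates 39, 40 and 41. The 3 groups did not overlap, with the parabiotic libraries highest and the microglia lowest, and transgenic replicate 26 lay well below the other transgenic libraries. The mean was 303.1 ± 73.9 CPM in transgenic cells (SD, n = 4), 582.9 ± 57.7 CPM in parabiotic cells (SD, n = 3) and 106.1 ± 26.7 CPM in microglia (SD, n = 3). Against microglia, Mmp14 rose by 2.46 ± 0.26 on the log2 scale in parabiotic cells (SE, edgeR adjusted p = 4.4e-05) and by 1.51 ± 0.24 in transgenic cells (adjusted p = 0.0025). Both calls held under all 18 alternative settings.

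Transgenic cells had less Mmp14 than parabiotic cells, with a log2 fold change of -0.94 ± 0.23 (SE, edgeR adjusted p = 0.0229). The call ended without parabiotic replicate 3, 11 or 15 (adjusted p = 0.059, 0.0941 and 0.0671) and with a library number term (adjusted p = 0.0865). That term marks only transgenic replicates 26 and 27, so the transgenic mean then comes from replicates 23 and 24. It does not adjust for library number in the other groups. Without both transgenic replicates 26 and 27 the value was -0.79 and passed (adjusted p = 0.0125).

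Mmp19 (ENSMUSG00000025355, chr10:128790910-128800824, plus strand) encodes a secreted metalloproteinase that cuts basement membrane proteins. It stood at 11.4, 9.81, 3.75 and 23.2 CPM in transgenic replicates 23, 24, 26 and 27, at 50.1, 33.8 and 17.8 CPM in parabiotic replicates 3, 11 and 15, and at 4.43, 3.29 and 2.15 CPM in microglia replicates 39, 40 and 41. Every parabiotic library lay above every microglia library, while transgenic replicate 26 fell inside the microglial range and replicate 27 inside the parabiotic one. Mmp19 rose by 3.36 ± 0.61 on the log2 scale in parabiotic cells against microglia (SE, edgeR adjusted p = 0.00152). In transgenic cells it was 1.87 ± 0.56 higher than in microglia on the same scale (adjusted p = 0.0482), a call that ended in 8 of 10 settings without one library (adjusted p of 0.0532 to 0.164 for microglia replicates 39, 40 and 41, parabiotic replicates 3, 11 and 15 and transgenic replicates 23 and 27). It also ended under RLE scaling, without a filter, with the library number term, with these 2 groups alone and by limma-voom (adjusted p of 0.0512 to 0.165). The difference between transgenic and parabiotic cells was -1.49 ± 0.51 (adjusted p = 0.0982), and -2.02 without transgenic replicate 27 (adjusted p = 0.0154). The gene shares 789 exonic bases with Tmem198b on the opposite strand, which stood at 4.70 to 10.9 CPM in transgenic, 11.2 to 12.2 CPM in parabiotic and 8.67 to 9.62 CPM in microglia libraries. The library kit does not record strand, so reads from that stretch could belong to either gene.

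Mmp12 (ENSMUSG00000049723, chr9:7344381-7369499, plus strand) encodes macrophage elastase. It stood at 20.2, 20.0, 172.4 and 77.5 CPM in transgenic replicates 23, 24, 26 and 27, at 50.1, 34.3 and 36.7 CPM in parabiotic replicates 3, 11 and 15, and at 1.13, 10.3 and 21.8 CPM in microglia replicates 39, 40 and 41. Transgenic replicates 23 and 24 lay within the microglial range, and replicates 26 and 27 above every parabiotic library. None of the comparisons passed: the log2 fold change was 1.87 ± 0.94 in parabiotic cells against microglia (SE, edgeR adjusted p = 0.147), 2.71 ± 0.94 in transgenic cells against microglia (adjusted p = 0.074) and 0.85 ± 0.86 in transgenic against parabiotic cells (adjusted p = 0.621). The second value passed without transgenic replicate 23 or 24 and by DESeq2 (adjusted p = 0.049, 0.0445 and 0.0365). Without both transgenic replicates 26 and 27 the last value was -1.02, so its direction rested on those libraries.

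Mmp25 (ENSMUSG00000023903, chr17:23628311-23645277, minus strand) encodes a leukocyte metalloproteinase tied to the membrane by a lipid anchor. It stood at 10.3, 9.25, 2.35 and 1.49 CPM in transgenic replicates 23, 24, 26 and 27, at 14.2, 13.3 and 16.9 CPM in parabiotic replicates 3, 11 and 15, and at 5.37, 5.19 and 4.43 CPM in microglia replicates 39, 40 and 41. The parabiotic libraries lay above all others, and the transgenic group split, with replicates 23 and 24 above the microglia and replicates 26 and 27 below them. The log2 fold change was 1.56 ± 0.60 in parabiotic cells against microglia (SE, edgeR adjusted p = 0.0632). It passed in 8 of 18 alternatives, among them the fit of these groups alone (adjusted p = 0.000109) and the fit without both transgenic replicates 26 and 27 (adjusted p = 2.15e-05). Transgenic cells differed from microglia by 0.23 ± 0.55 (adjusted p = 0.805) and from parabiotic cells by -1.34 ± 0.54 (adjusted p = 0.159). Without both replicates 26 and 27 the first of these was 0.97 and passed (adjusted p = 0.00415), as did the second (adjusted p = 0.0338). That fit left only replicates 23 and 24 in the transgenic group, the most alike pair of replicates.

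Adam8 (ENSMUSG00000025473, chr7:139978932-139992562, minus strand) encodes a membrane protease of myeloid cells that sheds adhesion molecules and cytokine receptors. It stood at 152.2, 159.3, 253.2 and 450.7 CPM in transgenic replicates 23, 24, 26 and 27, at 446.7, 334.9 and 239.2 CPM in parabiotic replicates 3, 11 and 15, and at 20.3, 67.1 and 120.1 CPM in microglia replicates 39, 40 and 41. Both CD11c groups lay above all microglia libraries and overlapped each other. Against microglia Adam8 rose by 2.30 ± 0.59 on the log2 scale in parabiotic cells (SE, edgeR adjusted p = 0.0107), a call that ended when no filter on low counts was used (adjusted p = 0.0567). That fold change was 2.95 without microglia replicate 41. In transgenic cells it was 1.88 ± 0.56 higher than in microglia (adjusted p = 0.0472). This call ended in 7 of 10 settings without one library (microglia replicates 39 and 40, parabiotic replicates 3, 11 and 15, transgenic replicates 26 and 27, adjusted p of 0.064 to 0.17), under RLE scaling, without a filter, with the library number term and with these 2 groups alone (adjusted p of 0.052 to 0.27). Without both transgenic replicates 26 and 27 the log2 fold change was 1.16 (adjusted p = 0.265). It was 2.52 without microglia replicate 41. Transgenic and parabiotic cells differed by -0.42 ± 0.52 (adjusted p = 0.695).

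Adamts1 (ENSMUSG00000022893, chr16:85793827-85803113, minus strand) encodes a secreted protease that cuts the proteoglycans aggrecan and versican. It stood at 209.1, 239.1, 204.6 and 41.8 CPM in transgenic replicates 23, 24, 26 and 27, at 2.90, 0.52 and 3.86 CPM in parabiotic replicates 3, 11 and 15, and at 293.2, 337.6 and 452.8 CPM in microglia replicates 39, 40 and 41. The 3 groups did not overlap, and the parabiotic libraries held the transcript at a small share of its level elsewhere. Adamts1 fell by 7.22 ± 0.82 on the log2 scale in parabiotic cells against microglia (SE, edgeR adjusted p = 6.85e-05). Transgenic cells had 6.16 ± 0.77 more than parabiotic cells on that scale (adjusted p = 0.000589). Both calls held under all 18 alternatives. Transgenic cells lay below microglia in every library, with a log2 fold change of -1.06 ± 0.57 that did not pass (adjusted p = 0.222) under the main settings or any alternative.

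Markers of vessel wall cells were set beside Adamts1, which those cells also express. The 8 mural cell markers summed to 58.3 to 117.4 CPM in transgenic libraries, 4.80 to 7.59 CPM in parabiotic libraries and 51.4 to 202.4 CPM in microglia. Cspg4 made up most of that sum in transgenic and microglia libraries, at 54.8 to 114.3 CPM in transgenic libraries, 1.52 to 3.55 CPM in parabiotic libraries and 48.0 to 200.7 CPM in microglia. Of the 6 mural markers tested, Cspg4 alone was lower in parabiotic cells against microglia. Pdgfrb, another of these markers, stood at 0.53 to 0.89 CPM in transgenic, 0.70 to 1.15 CPM in parabiotic and 0.60 to 1.23 CPM in microglia libraries. The 9 endothelial markers summed to 30.7 to 50.4 CPM in transgenic, 39.3 to 49.1 CPM in parabiotic and 51.7 to 56.4 CPM in microglia libraries. The sum of microglial markers was lowest in the parabiotic libraries as well, and transgenic replicate 27, lowest of its group in Adamts1, had the lowest microglial sum of that group, 4472 CPM. The 5 border macrophage markers summed to 254.8 CPM in transgenic replicate 27, against 58.2 to 95.4 CPM in the other transgenic libraries. Their sum was 149.9 to 165.6 CPM in parabiotic and 135.8 to 263.0 CPM in microglia libraries. Replicate 27 was also the highest of its group in Mmp19, Adam8 and Timp1. The part of any of these cell types in the Adamts1 result, or in the other values of replicate 27, was not tested.

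Plau (ENSMUSG00000021822, chr14:20836660-20843385, plus strand) encodes urokinase, the protease that turns plasminogen into plasmin at the cell surface. It stood at 10.4, 10.2, 14.1 and 6.84 CPM in transgenic replicates 23, 24, 26 and 27, at 5.14, 6.11 and 7.22 CPM in parabiotic replicates 3, 11 and 15, and at 12.2, 15.6 and 18.3 CPM in microglia replicates 39, 40 and 41. All parabiotic libraries lay below all microglia libraries, and the transgenic libraries overlapped both. Plau fell by 1.31 ± 0.28 on the log2 scale in parabiotic cells against microglia (SE, edgeR adjusted p = 0.00387), and the call held under all 18 alternatives. The log2 fold change was -0.56 ± 0.25 in transgenic cells against microglia (adjusted p = 0.152) and 0.75 ± 0.26 in transgenic against parabiotic cells (adjusted p = 0.101). Without transgenic replicate 27 the last value was 0.91 and passed (adjusted p = 0.0203).

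Timp2 (ENSMUSG00000017466, chr11:118301069-118355740, minus strand) encodes an inhibitor of most matrix metalloproteinases that also bridges MMP14 and the zymogen of MMP2 at the cell surface. It was the most abundant of the 10 transcripts per kilobase of exon in every group. It stood at 1148, 1148, 1987 and 1104 CPM in transgenic replicates 23, 24, 26 and 27, at 469.3, 637.4 and 737.9 CPM in parabiotic replicates 3, 11 and 15, and at 1449, 1596 and 2094 CPM in microglia replicates 39, 40 and 41. The parabiotic libraries lay below all others, and transgenic replicate 26 stood inside the microglial range while the other transgenic libraries lay below it. Timp2 fell by 1.48 ± 0.27 on the log2 scale in parabiotic cells against microglia (SE, edgeR adjusted p = 0.00163), under all 18 alternatives as well. Transgenic cells were 1.13 ± 0.26 higher than parabiotic cells (adjusted p = 0.0172), a call that ended without parabiotic replicate 3 or 11 (adjusted p = 0.0912 and 0.0667) and with the library number term (adjusted p = 0.0611). Transgenic cells and microglia differed by -0.35 ± 0.25 (adjusted p = 0.355). Transgenic replicate 26, highest of its group in Timp2, also had the highest microglial marker sum of that group, 12800 CPM, and the part of those cells in the result was not tested.

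Timp1 (ENSMUSG00000001131, chrX:20870166-20874735, plus strand) encodes an inducible secreted inhibitor that binds the zymogen of MMP9 and blocks MMP14 poorly. It stood at 3.38, 2.94, 1.90 and 12.8 CPM in transgenic replicates 23, 24, 26 and 27, at 16.6, 11.2 and 10.6 CPM in parabiotic replicates 3, 11 and 15, and at 0.085, 0.092 and 0.127 CPM in microglia replicates 39, 40 and 41. The microglia libraries held 3, 3 and 4 reads of the gene, and transgenic replicate 27 was the one transgenic library inside the parabiotic range. Against microglia, Timp1 rose by 6.94 ± 0.83 on the log2 scale in parabiotic cells (SE, edgeR adjusted p = 0.000104) and by 5.66 ± 0.80 in transgenic cells (adjusted p = 0.00128), and both calls held under all 18 alternatives. The second value was 4.73 without transgenic replicate 27 and 4.92 without both replicates 26 and 27.

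Since Timp1 rested on so few reads in microglia, its ratio was also taken from summed counts. The 1298 reads of the parabiotic libraries and the 10 reads of the microglia gave a ratio of 128.4 (exact 95% interval 69.6 to 268.4, counting error only). The 830 reads of the transgenic libraries gave 53.8 against the same microglia (29.1 to 112.7). Of those 830 reads 525 came from transgenic replicate 27, and without it the ratio was 27.01 (14.5 to 56.9). Transgenic cells were 1.29 ± 0.54 lower than parabiotic cells on the log2 scale, which did not pass (SE, edgeR adjusted p = 0.173), whereas the value without transgenic replicate 27 was -2.22 (adjusted p = 0.000647).

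Timp3 (ENSMUSG00000020044, chr10:86300372-86349506, plus strand) encodes the inhibitor that stays bound to the matrix and also blocks ADAM17 and ADAMTS proteases. It was near the limit of detection, at 0.47, 0.65, 0.00 and 1.73 CPM in transgenic replicates 23, 24, 26 and 27, at 0.37, 0.61 and 0.76 CPM in parabiotic replicates 3, 11 and 15, and at 1.44, 0.68 and 0.22 CPM in microglia replicates 39, 40 and 41. All 3 groups overlapped and no comparison passed, with edgeR adjusted p of 0.787 for parabiotic cells against microglia, 0.942 for transgenic cells against microglia and 0.902 for transgenic against parabiotic cells. Timp3 shares 1733 exonic bases with Syn3 on the opposite strand, which stood at 0.10 to 0.73 CPM in transgenic, 0.58 to 1.44 CPM in parabiotic and 0 to 0.15 CPM in microglia libraries.

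**Figure D2:**
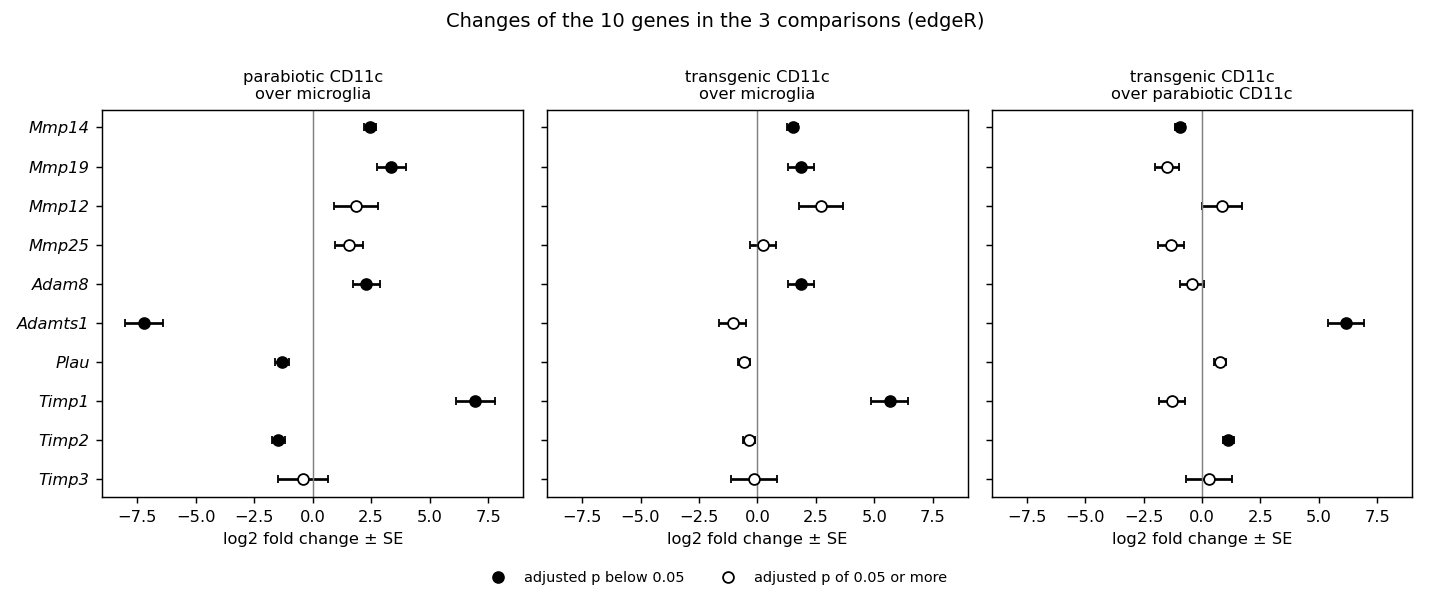
Log2 fold changes of the 10 genes with standard errors from edgeR, 1 panel for each of the 3 comparisons, on a shared linear axis. Filled points have an adjusted p below 0.05 and open points do not; Timp1 lies far to the right in both panels against microglia, and Adamts1 far to the left in the first panel and to the right in the third.

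The levels of the genes were set against each other per kilobase of exon, since longer transcripts collect more reads. The summed level of the 3 inhibitors was 298.5, 298.0, 512.1 and 298.1 CPM per kb in transgenic replicates 23, 24, 26 and 27, 139.2, 176.3 and 201.5 CPM per kb in parabiotic replicates 3, 11 and 15, and 372.1, 409.8 and 537.7 CPM per kb in microglia replicates 39, 40 and 41. The summed level of Mmp12, Mmp14, Mmp19 and Mmp25 was 64.6, 65.2, 57.6 and 74.2 CPM per kb in the transgenic libraries, 114.1, 125.6 and 107.6 CPM per kb in the parabiotic libraries and 25.0, 20.4 and 18.2 CPM per kb in microglia, in the same order. The inhibitor sum was above the sum of these 4 metalloproteinases in every library. The ratio of both sums was 4.02 to 8.89 in transgenic, 1.22 to 1.87 in parabiotic and 14.9 to 29.5 in microglia libraries, without overlap between groups. Each sum alone already separated the parabiotic libraries from the others, in opposite directions, so their separation by the ratio is not a further result. With all 21 MMP genes of the table and 4 Timp genes, a choice made after seeing the data, the ratio was 3.10 to 5.67 in transgenic libraries, 0.949, 0.898 and 1.31 in parabiotic replicates 3, 11 and 15, and 6.93 to 9.71 in microglia. The inhibitor sum was then below the metalloproteinase sum in parabiotic replicates 3 and 11. Timp2 made up 95.1% to 99.6% of the sum of the 3 inhibitors in transgenic libraries, 86.5% to 94.0% in parabiotic libraries and over 99.9% in microglia. Among Mmp12, Mmp14, Mmp19 and Mmp25, Mmp14 made up most of the sum in all libraries. Its share was 56.0% in transgenic replicate 26, where Mmp12 added 41.4%, and 75.5% to 90.3% in the other 9. Mmp2, which is not among these 4, had a mean of 31.4 CPM per kb in microglia, against 17.8 CPM per kb for Mmp14.

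**Figure D3:**
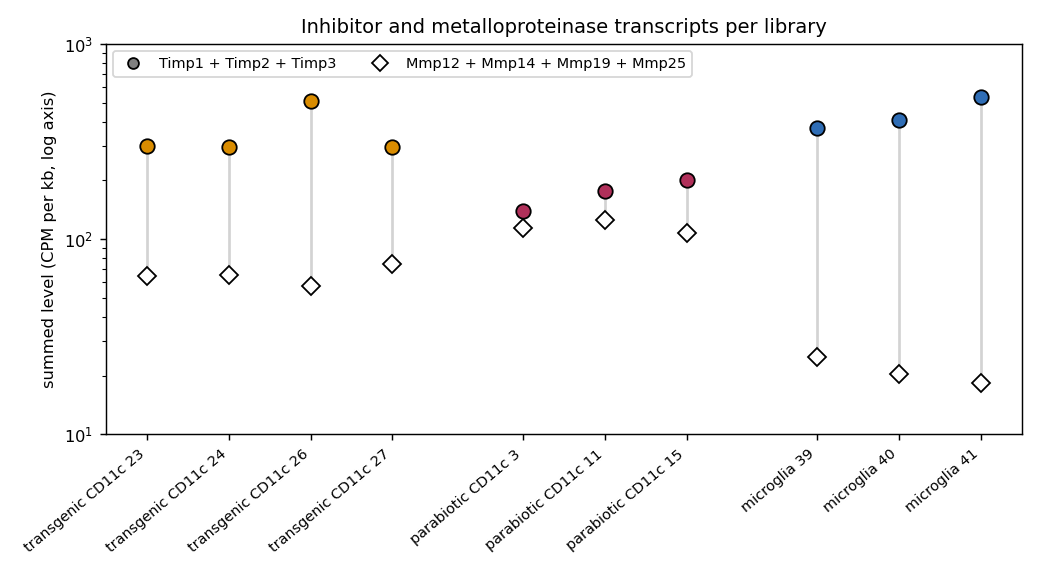
Summed transcript levels in CPM per kb of exon, on a log axis, for Timp1, Timp2 and Timp3 (filled circles) and for Mmp12, Mmp14, Mmp19 and Mmp25 (open diamonds), 1 column per library with transgenic CD11c libraries at the left, then parabiotic CD11c and microglia. The grey line joins both sums of a library and is shortest in the parabiotic libraries, where the ratio was 1.22 to 1.87.

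The pair of Mmp14 and its partner Timp2 was compared as a ratio per kilobase, using 1 value per library. It was 0.192, 0.197, 0.0633 and 0.200 in transgenic replicates 23, 24, 26 and 27, 0.750, 0.665 and 0.498 in parabiotic replicates 3, 11 and 15, and 0.0608, 0.0416 and 0.0256 in microglia replicates 39, 40 and 41. The groups did not overlap, although transgenic replicate 26 came close to microglia replicate 39. The difference in mean log2 ratio was 3.97 between parabiotic cells and microglia (exact two-sided permutation p = 0.1, the smallest that 20 splits allow). It was 1.88 between transgenic cells and microglia and -2.09 between transgenic and parabiotic cells (exact two-sided permutation p = 0.0571 for each, the smallest that 35 splits allow). This permutation test cannot reach 0.05 with so few libraries. Mmp14 and Timp2 each separated the parabiotic libraries from both other groups without overlap, in opposite directions. In those comparisons the ratio had to separate as well, so it repeats the single-gene results and adds no support to them.

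The rest of the MMP family, without the 4 genes above, had 11 genes tested, of which 4 were higher and 2 lower in parabiotic cells against microglia. For this list and those below, the share over all genes tested in this comparison was 17.4% higher and 17.9% lower. Mmp2, gelatinase A, whose zymogen MMP14 and TIMP2 activate together, stood at 43.6, 35.8, 29.6 and 12.5 CPM in transgenic replicates 23, 24, 26 and 27, at 4.02, 4.29 and 4.46 CPM in parabiotic replicates 3, 11 and 15, and at 91.1, 113.1 and 113.2 CPM in microglia replicates 39, 40 and 41. It fell by 4.63 ± 0.40 on the log2 scale in parabiotic cells (SE, edgeR adjusted p = 1.31e-05) and by 1.80 ± 0.32 in transgenic cells (adjusted p = 0.0047), both against microglia, so that it was lowest where Mmp14 was highest. The neutrophil collagenase Mmp8 stood at 16.8 to 34.4 CPM in transgenic, 44.7 to 105.4 CPM in parabiotic and 0.113 to 1.74 CPM in microglia libraries. It rose against microglia by 6.24 ± 0.70 in parabiotic cells (adjusted p = 6.38e-05) and by 4.75 ± 0.65 in transgenic cells (adjusted p = 0.00106), values that were 6.93 and 5.43 without microglia replicate 41.

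Mmp27 and Mmp15 ranked with these by p in parabiotic cells against microglia. Mmp27 stood at 4.65 to 13.9 CPM in transgenic, 8.82 to 22.4 CPM in parabiotic and 0.141 to 1.01 CPM in microglia libraries and rose by 4.89 ± 0.69 on the log2 scale in parabiotic cells (SE, edgeR adjusted p = 0.000302), or 5.59 without microglia replicate 41. Mmp15, a membrane-type metalloproteinase, was lower in parabiotic cells (adjusted p = 0.000806), at no more than 1.17 CPM in any library.

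Mmp9, gelatinase B, stood at 0.251, 2.05, 0.430 and 7.18 CPM in transgenic replicates 23, 24, 26 and 27, at 23.5, 53.8 and 5.37 CPM in parabiotic replicates 3, 11 and 15, and at 0.960, 0.706 and 0.158 CPM in microglia replicates 39, 40 and 41. It rose by 5.48 ± 1.30 in parabiotic cells against microglia (SE, edgeR adjusted p = 0.00713), a value that was 4.56 without parabiotic replicate 11, the library highest in it. The 11 neutrophil markers, to which Mmp8 itself belongs, summed to 18.2 to 50.8 CPM in transgenic libraries, to 51.1, 956.8 and 180.2 CPM in parabiotic replicates 3, 11 and 15, and to 0.452 to 2.63 CPM in microglia. Mmp8 itself made up most of this sum in every transgenic library and in parabiotic replicate 3, with 44.7 of 51.1 CPM in the latter. S100a9 stood at 0 to 0.219 CPM in transgenic libraries and at 0.172, 208.7 and 25.0 CPM in parabiotic replicates 3, 11 and 15. S100a8 stood at 0.189 to 17.8 CPM and at 5.1, 202.4 and 23.2 CPM in the same order. Of 5 neutrophil markers tested, 4 were higher in parabiotic cells against microglia, Mmp8 among them. S100a9, Ly6g, Retnlg, Camp, Elane and Mpo did not pass the filter. Camp and Ngp were at 0 in all transgenic libraries and Ly6g, Retnlg and Elane at 0 in all microglia libraries. Parabiotic replicate 11 was highest in Mmp8, in Mmp9 and in this sum, and the part of these cells in the result was not tested.

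The wider set of inhibitors had 8 further genes tested, of which 1 was higher and 3 were lower in parabiotic cells against microglia. The one that was higher was Rarres1 (2.98 ± 0.65 on the log2 scale, SE, edgeR adjusted p = 0.00428), at no more than 1.43 CPM in any library. Spock1, a proteoglycan of the testican family, fell by 5.38 ± 1.05 (adjusted p = 0.00235), at no more than 1.60 CPM. Reck, a membrane-anchored inhibitor of metalloproteinases, fell by 2.22 ± 0.53 on the log2 scale (SE, edgeR adjusted p = 0.00764), and no library held more than 4.32 CPM of it. Cst3, cystatin C, an inhibitor of cysteine proteases, stood at 1723 to 3788 CPM in transgenic, 1463 to 1771 CPM in parabiotic and 5321 to 7392 CPM in microglia libraries. It fell by 1.95 ± 0.28 in parabiotic cells (adjusted p = 0.000334) and by 0.98 ± 0.25 in transgenic cells (adjusted p = 0.026) against microglia. The second call ended without any one of the microglia replicates 39, 40 and 41 (adjusted p = 0.0611, 0.135 and 0.0596), with the library number term (adjusted p = 0.136) and with these 2 groups alone (adjusted p = 0.0662).

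Among 9 further ADAM genes tested, 3 were higher and 3 lower in parabiotic cells against microglia. With the stricter filter 6 were tested, of which 1 was higher and 3 were lower. Adam11 and Adam23 had few reads, at no more than 3.68 and 3.07 CPM in any library. Adam10, a widely expressed sheddase, fell by 0.88 ± 0.15 on the log2 scale (SE, edgeR adjusted p = 0.00111) and Adam15 by 0.96 ± 0.14 (adjusted p = 0.000304). Adam19 stood at 26.3, 21.1, 3.19 and 7.14 CPM in transgenic replicates 23, 24, 26 and 27, at 19.5, 15.6 and 19.7 CPM in parabiotic replicates 3, 11 and 15, and at 1.64, 1.35 and 0.696 CPM in microglia replicates 39, 40 and 41, and both CD11c groups lay above microglia. It rose by 3.89 ± 0.70 in parabiotic cells (adjusted p = 0.00145) and by 3.55 ± 0.67 in transgenic cells (adjusted p = 0.00693) against microglia, and the second value was 4.26 without both transgenic replicates 26 and 27.

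Of 4 further ADAMTS genes tested, 1 was lower in parabiotic cells against microglia and none higher by edgeR, by DESeq2, by limma-voom or without adjustment. Adamts16 was at 0 in all 3 parabiotic libraries, at 7.09, 9.06, 5.44 and 0.292 CPM in transgenic replicates 23, 24, 26 and 27, and at 6.38, 13.2 and 10.8 CPM in microglia replicates 39, 40 and 41. As with Adamts1, the parabiotic libraries were lowest and transgenic replicate 27 was the lowest of its group.

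The plasminogen activator system had 12 genes tested without Plau, of which 6 were higher and 3 lower in parabiotic cells against microglia, and 5 were higher and none lower in transgenic cells. Over all genes tested 17.4% were higher and 17.9% lower in parabiotic cells, and 8.88% and 4.79% in transgenic cells. The 5 genes of the list higher in transgenic cells became 2 without microglia replicate 39 or 40 and by limma-voom, and 3 without microglia replicate 41. Without adjustment 1 gene was lower in transgenic cells, as it was by DESeq2 and by limma-voom. Plaur, the receptor that holds urokinase at the cell surface, stood at 277.0, 308.6, 164.8 and 343.7 CPM in transgenic replicates 23, 24, 26 and 27, at 457.6, 489.6 and 410.1 CPM in parabiotic replicates 3, 11 and 15, and at 151.0, 176.4 and 164.8 CPM in microglia replicates 39, 40 and 41. It rose by 1.46 ± 0.24 on the log2 scale in parabiotic cells against microglia (SE, edgeR adjusted p = 0.000728), where Plau itself was lower. In transgenic cells it was 0.74 ± 0.22 higher (adjusted p = 0.0492), a call that ended in 9 of 10 settings without one library (adjusted p of up to 0.183) and under RLE scaling and limma-voom (adjusted p = 0.0572 and 0.0621).

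Anxa2 and S100a10 form the complex that gathers plasminogen and its activators on the membrane. Anxa2 stood at 211.8 to 393.6 CPM in transgenic, 426.3 to 509.4 CPM in parabiotic and 36.4 to 85.1 CPM in microglia libraries, and rose by 2.97 ± 0.33 on the log2 scale in parabiotic cells (SE, edgeR adjusted p = 5.6e-05) and by 2.19 ± 0.30 in transgenic cells (adjusted p = 0.00119). S100a10 rose by 5.26 ± 0.80 in parabiotic cells (adjusted p = 0.000469) and by 4.6 ± 0.76 in transgenic cells (adjusted p = 0.00327) against microglia. Without transgenic replicate 27, the highest of its group, the transgenic value was 3.45.

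Serpine2, protease nexin 1, an inhibitor of thrombin and urokinase, stood at 728.1, 844.9, 2001 and 470.1 CPM in transgenic replicates 23, 24, 26 and 27, at 12.3, 19.1 and 29.2 CPM in parabiotic replicates 3, 11 and 15, and at 684.6, 1089 and 1787 CPM in microglia replicates 39, 40 and 41. The parabiotic libraries lay far below all others, and the transgenic libraries overlapped the microglia. Serpine2 fell by 5.88 ± 0.64 on the log2 scale in parabiotic cells against microglia (SE, edgeR adjusted p = 5.25e-05). Transgenic cells had 5.64 ± 0.62 more than parabiotic cells on that scale (adjusted p = 0.000293), and 5.01 more without transgenic replicate 26.

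Of 17 activators, cofactors and clearance receptors tested, 1 was higher and 7 were lower in parabiotic cells against microglia, as were 17.4% and 17.9% of all genes tested. The one that rose was Cd44, a hyaluronan receptor that docks metalloproteinases on the cell surface, at 172.8, 171.7, 104.7 and 280.6 CPM in transgenic replicates 23, 24, 26 and 27, 434.0, 393.6 and 311.9 CPM in parabiotic replicates 3, 11 and 15, and 25.0, 29.8 and 38.8 CPM in microglia replicates 39, 40 and 41. Its log2 fold change against microglia was 3.61 ± 0.34 in parabiotic cells (SE, edgeR adjusted p = 2.13e-05) and 2.55 ± 0.31 in transgenic cells (adjusted p = 0.000572). Itgb3, the beta chain of the vitronectin receptor, stood at 13.1 to 57.4 CPM in transgenic, 1.75 to 1.89 CPM in parabiotic and 97.9 to 103.8 CPM in microglia libraries. It fell by 5.80 ± 0.51 on the log2 scale in parabiotic cells against microglia (adjusted p = 1.58e-05). Lrp1, which clears protease and inhibitor complexes, and Furin, which activates the zymogen of MMP14, did not pass (adjusted p = 0.171 and 0.295 in parabiotic cells against microglia). Both passed without transgenic replicates 26 and 27, Lrp1 as lower (adjusted p = 0.0128) and Furin as higher (adjusted p = 0.0271).

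Among 25 matrix substrates tested, 5 were higher and 4 lower in parabiotic cells against microglia, a share close to the 35.3% over all genes. The higher count was 2 without microglia replicate 40 or 41, 3 without a filter and 1 with the stricter filter. Sparc, a collagen-binding matrix protein, stood at 1423, 1319, 1258 and 443.5 CPM in transgenic replicates 23, 24, 26 and 27, at 10.5, 5.96 and 19.7 CPM in parabiotic replicates 3, 11 and 15, and at 2823, 3168 and 2617 CPM in microglia replicates 39, 40 and 41. It fell by 7.89 ± 0.60 on the log2 scale in parabiotic cells against microglia (SE, edgeR adjusted p = 6.7e-06). Thbs1, thrombospondin 1, which ADAMTS1 is known to cut, went the other way, at 1948, 1856, 675.9 and 4008 CPM in transgenic replicates 23, 24, 26 and 27, 4954, 5371 and 3527 CPM in parabiotic replicates 3, 11 and 15, and 65.7, 121.9 and 211.1 CPM in microglia replicates 39, 40 and 41. It rose by 5.12 ± 0.64 in parabiotic cells (adjusted p = 0.000141) and by 4.0 ± 0.60 in transgenic cells (adjusted p = 0.00178) against microglia. Of the basement membrane genes, Nid2 and Lamb2 fell by 4.38 ± 0.38 and 4.32 ± 0.41 in parabiotic cells against microglia (adjusted p = 1.52e-05 and 2.43e-05). Col4a2, a chain of collagen IV, was 2.07 ± 0.62 higher (adjusted p = 0.0228), a call that ended without microglia replicate 40 or 41 or parabiotic replicate 3 or 11. Col4a1 and Lamc1 did not pass (1.60 ± 0.67 and -0.12 ± 0.20, adjusted p = 0.0864 and 0.69). The fibrillar collagen genes Col1a1 and Col1a2 were also higher (adjusted p = 0.0494 and 0.00776), and the Col1a1 call ended in 8 of 10 settings without one library (microglia replicates 39, 40 and 41, parabiotic replicates 3 and 15, transgenic replicates 23, 24 and 26). The 7 fibroblast markers include Col1a1, Col1a2 and Col3a1. They summed to 8.38 to 26.6 CPM in transgenic libraries and 25.1 to 35.9 CPM in microglia. The sum was 50.9, 4.44 and 23.4 CPM in parabiotic replicates 3, 11 and 15. Col6a3 made up most of the microglial sum, at 22.4 to 30.1 CPM, and stood at 0 to 0.60 CPM in parabiotic libraries. Of the markers that are not collagens, Dcn stood at 8.4, 0.061 and 4.7 CPM in these replicates against 0.79 to 0.82 CPM in microglia. Lum stood at 3.4, 0.091 and 0.82 CPM against 0.085 to 0.43 CPM. For Pdgfra the values were 1.3, 0.12 and 0 CPM against 0.25 to 0.52 CPM. The part of fibroblasts in the collagen values was not tested. Col4a1, Lamc1 and the collagen I genes were chosen after their values were seen.

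**Figure D4:**
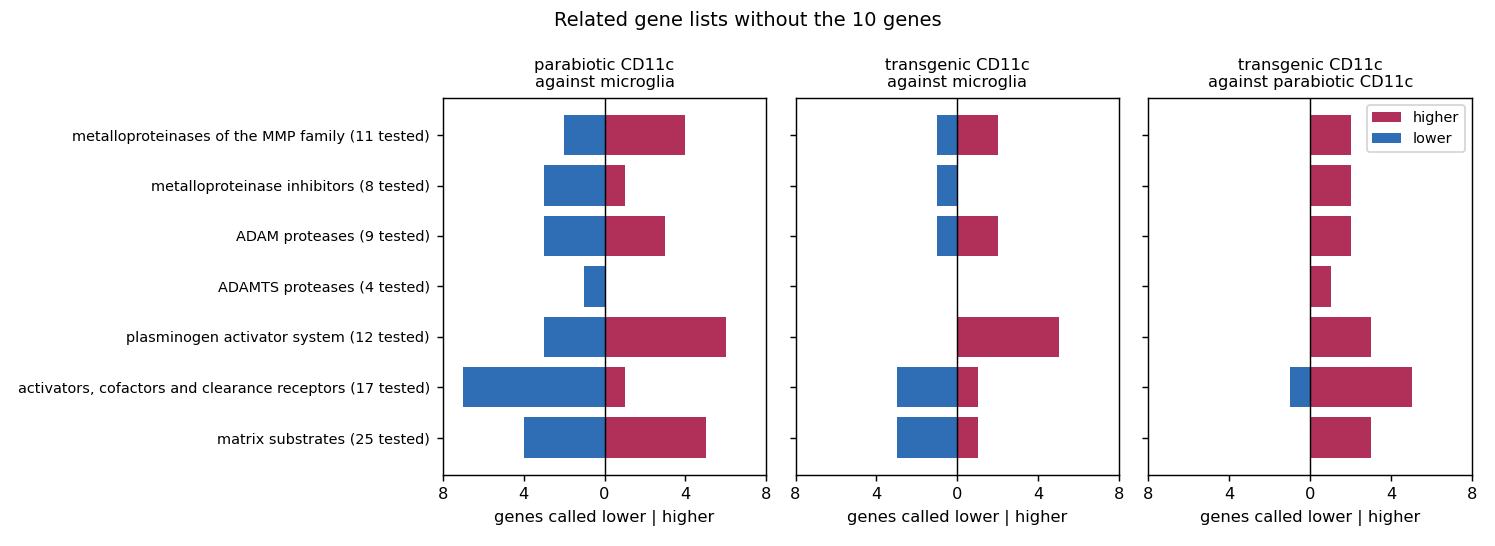
Number of genes called higher (red, to the right of 0) and lower (blue, to the left) at an edgeR adjusted p below 0.05 in 7 related gene lists without the 10 genes, 1 panel per comparison, with the number tested beside each list. In the first panel the activators, cofactors and clearance receptors run mostly to the left, with 7 lower and 1 higher, and the plasminogen activator system mostly to the right, with 6 higher and 3 lower. Over all genes tested 17.4% were higher and 17.9% lower in that comparison.

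The list counts moved with transgenic replicates 26 and 27, which share in the estimate of the spread. The number of genes called over all genes tested moved with them too, and was larger without them in both comparisons below. The shares over all genes given above therefore do not apply to the counts without them, and these counts are not a result about the lists. The totals over all genes are given in the section on processing at the end. Without both, 5 genes of the MMP family were higher and 3 lower in parabiotic cells against microglia, and of the activators, cofactors and clearance receptors 4 were higher and 9 lower. In transgenic against parabiotic cells the plasminogen activator system had 3 higher and 5 lower genes without them and 3 higher and 0 lower with them by edgeR, where 3 were lower without adjustment, 2 by DESeq2 and 1 by limma-voom.

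The genes whose log2 CPM followed each of the 10 most closely over the 10 libraries were taken as a description, since the libraries fall into 3 groups and share them. Jam2 and Lamb2 followed Adamts1 (Pearson r = 0.993 for both), Palm and Gpr18 followed Mmp14 (r = 0.990 and 0.986), and Sgms2 and Ybx3 followed Timp1 (r = 0.994 and 0.993). Abhd12 and Msrb2 followed Timp2 (r = 0.992 and 0.991), and Slc6a8 and Vamp4 followed Adam8 (r = 0.991 and 0.979). Ugdh and Atp6v1c1 followed Mmp12 (r = 0.98 and 0.979), and Krtcap3 and Eml3 followed Mmp25 (r = 0.993 and 0.987). Spon1 came closest to Mmp19 (r = 0.982), Gm38317 and Fam3a to Plau (r = 0.983 and 0.982), and Zfp326 and Dnmbp to Timp3 (r = 0.935 and 0.930).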

How the data were processed

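RNA of sorted cells was measured in 10 libraries made with the SMART-Seq v4 and NEBNext Ultra kits, per the labels' protocols. The authors deposited whole-number counts per Ensembl gene, and no normalization of these counts is stated in the file. Tools listed per the submitters' processing notes are STAR 2.5.3a, FastQC 0.11.5 and DESeq2, with GRCm38 as the build. How reads were counted, and whether by strand, are points not given in the sources used here. Symbols, coordinates and exon lengths came from GENCODE M21, which held 28492 of 28585 identifiers, and promoter sequences from RefSeq (GRCm38.p6).

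All 10 libraries entered 1 fit with 1 mean per group in edgeR 4.0.16 (R 4.3.3): filterByExpr by group kept 15151 genes and removed 13434, TMM scaling, robust glmQLFit and glmQLFTest, Benjamini-Hochberg adjustment over all tested genes and a threshold of 0.05. Levels are TMM-scaled CPM. The biological coefficient of variation was 0.317, so for genes with many reads the precision is set by library-to-library variation more than by depth. For genes with few reads, such as Timp1 in microglia and Timp3, counting error matters as well. No label says that libraries came from separate animals, so p-values speak of variation among these libraries, which may be technical. The code was tested on simulated counts.

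The 10 genes and all lists were chosen with earlier results of these data known. Besides the 10, the text names up to 4 genes of a list by lowest p, fixed partners of the 10, overlapping genes and the 2 most correlated genes. Alternatives were RLE scaling, DESeq2 1.42.0, limma-voom (limma 3.58.1), no filter, a filter of 5 CPM in 3 libraries, the 2 groups alone, a library number term and each library left out; leaving out both transgenic replicates 26 and 27 was added after the data were seen. The library number term marked transgenic replicates 26 and 27 alone, so the transgenic mean of that fit came from replicates 23 and 24. Single ratios used exact permutation tests (SciPy 1.17.1).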

Additional observations from a re-analysis of the deposited data

Results flagged for a closer look

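3 levels stood apart within the group of 4 transgenic libraries by Dixon's criterion, which sets the gap to the nearest library against the whole range. Chance flags about 5% of such groups. Mmp14 was 192.3 CPM in transgenic replicate 26, against 337.2 to 345.2 CPM in the other 3. Timp2 was 1987 CPM in the same library, against 1104 to 1148 CPM in the others. Timp1 was 12.8 CPM in transgenic replicate 27, against 1.90 to 3.38 CPM in the others. These are the 2 libraries with library numbers of their own.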

How the results depend on the processing

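No paired analysis was possible because the groups share no replicate numbers. Of the results for the 10 genes, those that passed kept their side of the threshold in 219 alternatives and lost it in 33, and those that did not pass stayed there in 248, passed in 23 and changed sign in 14. Genes called in transgenic cells against microglia numbered 2070, against 1303 with the library number term, 1229 with the 2 groups alone, 3437 by DESeq2 and 746 to 2684 without one library. In transgenic against parabiotic cells they numbered 1523, against 999 with the 2 groups alone, 2419 by DESeq2, 3482 without both transgenic replicates 26 and 27, and 830 to 2510 without one library. In parabiotic cells against microglia they numbered 5347, against 8334 without both replicates and 3747 to 6458 without one library. Fewer libraries or genes in a fit change its power, and other causes were not tested. Sign changes concerned log2 fold changes that did not pass under the main settings. Timp3 ranged from -0.88 to 0.36 without one library in parabiotic cells against microglia, from -1.05 to 0.65 in transgenic cells against microglia and from -0.63 to 0.67 in transgenic against parabiotic cells, where it was -0.046 with the number term, -0.98 by limma-voom and -0.061 without both replicates. Mmp25 in transgenic cells against microglia was -0.25 by limma-voom and -0.20 to 0.56 without one library. Mmp12 in transgenic against parabiotic cells was -1.0 with the number term, -1.02 without both replicates and -0.080 to 1.16 without one library. Timp3 had 0 to 71 reads per library and varied widely within groups.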
